A study of Rattus norvegicus with 12 samples.

Results

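The 72 genes described here are named for the respiratory chain and the ATP synthase of mitochondria, with cytochrome c and a group of complex I assembly factors. They were taken by symbol from the platform annotation, as every name that starts with Nduf, Uqcr, Atp5 or Cox followed by a digit from 4 to 8, with Sdha, Sdhb, Sdhc, Sdhd, Cycs and Cyc1, out of 12978 genes that have a named probe. The rule used symbols alone, but the set was chosen with earlier results of these data known. A detection filter was applied afterwards. Each of the 72 has 1 named probe, and 65 were detected at a p under 0.02 on all 12 arrays. These were 28 of 31 genes of complex I, 4 of 4 of complex II, 5 of 5 of complex III, 8 of 11 of complex IV, 12 of 13 of complex V, the 1 gene of cytochrome c (Cycs) and 7 of 7 assembly factors (Ndufaf1 to Ndufaf7). Subunits encoded by mitochondrial DNA carry other names and are not among them, and no named probe for Cyc1 or Ndufa4 was found here.

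The respiratory chain passes electrons from NADH (complex I) and succinate (complex II) through coenzyme Q to complex III, and from there through cytochrome c to complex IV, which reduces oxygen. Complexes I, III and IV pump protons across the inner mitochondrial membrane, and complex V, the ATP synthase, uses their return flow to make ATP. The genes here are nuclear, and several subunits of complex IV exist in a form found in most tissues and another found in heart and skeletal muscle.

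The tumors were subcutaneous flank xenografts of the rat C6 glioma cell line, a single line, in athymic female nude mice (SWISS nu+/nu+). MNF, a methoxynaphthyl derivative of the adrenergic agonist fenoterol, was injected intraperitoneally at 2 mg/kg on 5 days a week for 19 days from day 3 after inoculation, and control mice received the vehicle alone, ascorbic acid in saline (a figure legend of the study gives citrate in PBS and a slightly shorter course). RNA of 6 tumors per group was hybridized to Illumina RatRef-12 arrays, tumors 1 to 3 of each group from cohort 1 and tumors 4 to 6 from cohort 2. The question asked of each member was whether its transcript level differed between MNF-treated and vehicle-treated tumors and whether that difference was alike in both cohorts.

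The deposited signals are not normalized, and mean signal per array was 500.4 to 858 in the MNF group and 708 to 1062 in the vehicle group. Levels below are therefore log2 signals that were centred and scaled on each array, so that 0 is the mean of the probes detected on every array, and a difference of 1 is a doubling on that scale. Levels of different probes are not set against each other, apart from ranks of probe brightness, which are not read as amounts of transcript. The glial and glioma markers Olig1, Cd44, Nes, Vim, S100b and Cnp were detected on all 12 arrays, as were the macrophage genes Cd14 and Cd68, while Ptprc, Aif1 and C1qa, which also mark macrophages or other leukocytes, and the endothelial genes Cdh5 and Tek were detected on none. The mean level of the skeletal muscle genes Acta1, Myl1 and Tnnc2 ranged from -1.75 to 5.51 in MNF-treated tumors and from -1.92 to 3.95 in vehicle-treated tumors. Tissue pieces hold many cells, and fewer cells of a type and less RNA per cell cannot be told apart.

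The promoters of the members were read from RefSeq (build GRCr8, 250 bases before to 50 after each start), which matched 63 of the 72 genes. They are shown because the choice of the genes used no sequence, and because motifs of factors known to act on respiratory genes can be seen in them. Of the 63 windows, 15 (23.8%) hold a core of the motif of nuclear respiratory factor NRF1 (GCGCA, any letter, then GCGC), against 4.71% of 27457 windows of the same length. The motif CCGGAAG, bound by ETS family factors such as GABP, is in 19 (30.2%) against 9.22% of all windows, and AAGATGGC, bound by YY1, is in 11 (17.5%) against 3.44%. The motif AAGGTCA, bound by estrogen-related receptors, is in 8 (12.7%) against 4.37%. Both strands were searched, and 38 of the 63 (60.3%) hold at least 1 of the 4 against 19.5% of all windows. Median GC content was 57.3% in the members' windows and 52.3% in all windows, and its part in these shares was not tested. A match is a run of letters and not a measured binding site.

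Below are the 150 bases before the start of 6 members, 5′ to 3′ on the gene's strand, with whole matches to the 4 motifs in capitals. Sdha (chr1:30764403-30764552, plus strand) and Atp5me (chr14:1464710-1464859, plus strand) show repeated and mixed motifs. Ndufs5 (chr5:141264403-141264552, minus strand) and Ndufs8 (chr1:210573699-210573848, minus strand) are complex I members described further below. Cox8a (chr1:213833624-213833773, minus strand) and Cox8b (chr1:205408274-205408423, minus strand) are the common and the muscle form of the same subunit.
Sdha: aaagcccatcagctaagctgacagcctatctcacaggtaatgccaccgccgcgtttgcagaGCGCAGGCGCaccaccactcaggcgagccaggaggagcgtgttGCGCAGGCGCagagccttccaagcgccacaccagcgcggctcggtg
Ndufs5: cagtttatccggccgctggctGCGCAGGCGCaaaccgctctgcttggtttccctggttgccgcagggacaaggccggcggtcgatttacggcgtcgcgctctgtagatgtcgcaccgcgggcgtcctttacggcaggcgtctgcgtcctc
Ndufs8: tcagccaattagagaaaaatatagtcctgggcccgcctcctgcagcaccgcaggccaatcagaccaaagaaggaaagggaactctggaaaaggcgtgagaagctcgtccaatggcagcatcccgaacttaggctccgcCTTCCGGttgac
Cox8a: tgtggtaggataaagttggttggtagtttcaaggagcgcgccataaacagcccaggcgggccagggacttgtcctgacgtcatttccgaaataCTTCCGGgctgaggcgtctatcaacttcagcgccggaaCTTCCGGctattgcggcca
Atp5me: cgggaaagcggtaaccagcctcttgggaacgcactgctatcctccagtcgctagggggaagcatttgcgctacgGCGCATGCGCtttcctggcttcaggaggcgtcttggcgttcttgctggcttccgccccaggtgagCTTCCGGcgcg
Cox8b: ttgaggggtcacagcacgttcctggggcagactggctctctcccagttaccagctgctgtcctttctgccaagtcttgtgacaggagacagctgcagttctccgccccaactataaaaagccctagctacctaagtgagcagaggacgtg
Sdha carries 2 whole NRF1 motifs in the stretch shown, and Atp5me carries an NRF1 and an ETS motif. Cox8a carries 2 ETS motifs, and the muscle form Cox8b has no match to any of the 4 in its full window. Of the other complex IV windows, those of Cox5a, Cox6a2, Cox7a2l, Cox7b and Cox8c have none either, while Cox4i1 and Cox5b hold ETS matches. By complex, NRF1 motifs were in 6 of 27 windows of complex I, 1 of 4 of complex II, 1 of 4 of complex III, 0 of 9 of complex IV and 5 of 12 of complex V, and ETS motifs in 6, 2, 2, 3 and 5 of these windows.

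The transcripts of the respiratory chain differed little between MNF-treated and vehicle-treated tumors. None of the 65 members (0) passed the test, where 0% of all 7620 features did (limma with cohort as a covariate, Benjamini-Hochberg adjusted p under 0.05, smallest adjusted p 0.499). At an unadjusted p under 0.05, 3 of 65 members (4.62%) were counted against 7.99% of all features. The median log2 change, MNF minus vehicle, was -0.0089 over the members and 0.0013 over all features. Above 0 lay 29 of 65 members against 50.2% of all features. Under Z-normalization over all probes, the scaling of the authors' own values, these medians were 0.026 and -0.048. There 36 of 65 members lay above 0 against 35.8% of all features. In no member did the 6 MNF-treated tumors lie wholly above or wholly below the 6 vehicle-treated tumors, which 0.21% and 0.249% of all features did. The median log2 change was -0.015 for complex I, -0.023 for complex II, -0.031 for complex III, 0.032 for complex IV, 0.077 for complex V and -0.032 for the assembly factors. Each of these medians took the other sign under at least 1 other scaling, covariate or left-out tumor.

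The intervals bound the size of the average change over both cohorts, relative to the mean of each array. The 95% interval of the change reached no farther than 0.5 on the log2 scale (1.41-fold) from 0 for 64 of 65 members, the exception being Ndufv1 at 0.60. The median standard error of a member was 0.10. Within a single cohort the bounds were wider, with 50 of 65 members inside 0.5 in cohort 1 and 45 of 65 in cohort 2. For the difference of the MNF changes between cohorts 14 of 65 were inside 0.5, and the highest bound was 1.08 (Atp5mk).

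**Figure D1:**
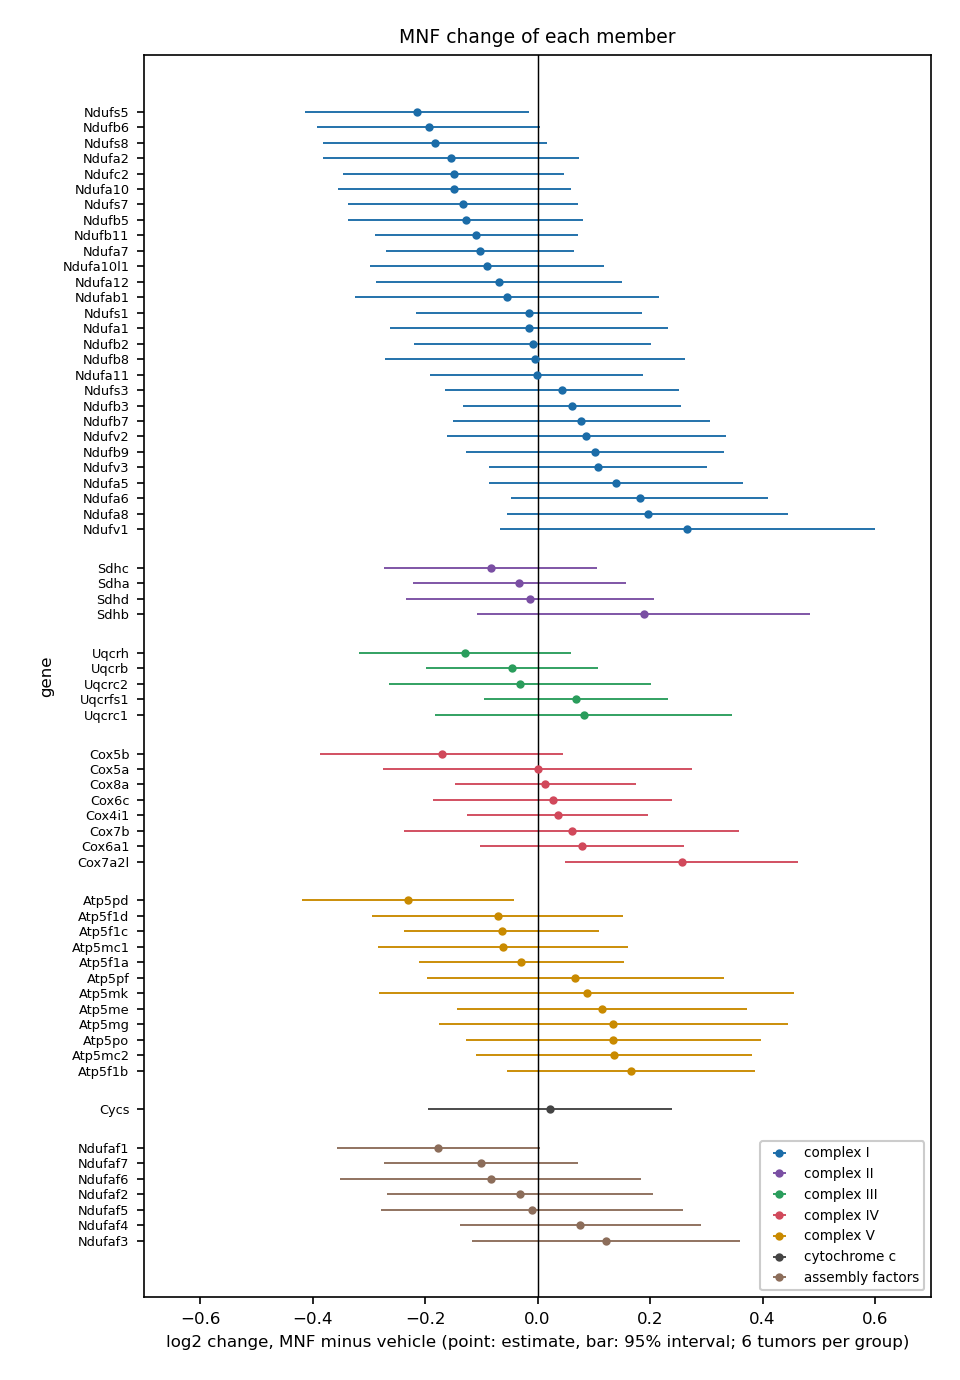
Log2 change of each of the 65 members, MNF minus vehicle (x axis), by complex (y axis, 1 gene per line), where points are estimates from 6 tumors per group and bars are 95% intervals. The intervals of 3 genes exclude 0 before adjustment, Ndufs5 and Atp5pd on the lower side and Cox7a2l on the higher, and none passed after it.

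Complex I has the most members. Ndufv1, the flavoprotein subunit that takes electrons from NADH, had the widest spread among these subunits, with levels of 0.34 to 1.53 (median 1.03) in MNF-treated tumors and 0.38 to 0.96 (median 0.70) in vehicle-treated tumors. The groups overlapped, with MNF-treated tumors 1, 4 and 5 above every vehicle-treated tumor and tumor 2 below all of them. Its log2 change was 0.27 (SE 0.16, limma adjusted p = 0.71).

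Ndufs8, an iron-sulfur subunit of the arm that reaches into the matrix, had levels of 1.33 to 1.91 (median 1.71) in treated tumors and 1.77 to 1.98 (median 1.89) in controls. MNF-treated tumor 2 was the lowest by a wide margin, and the groups overlapped. Its log2 change was -0.18 (SE 0.09, limma adjusted p = 0.67). Ndufb6, an accessory subunit of the membrane arm, had levels of 1.46 to 1.78 (median 1.65) in treated tumors and 1.61 to 2.02 (median 1.79) in controls, a log2 change of -0.19 (SE 0.09, limma adjusted p = 0.64). Vehicle-treated tumors 1 and 2 had the highest levels, MNF-treated tumors 2 and 6 the lowest, and the groups overlapped.

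Ndufa6, an accessory subunit on the matrix arm, had levels of 2.24 to 2.83 (median 2.57) in treated tumors and 2.18 to 2.58 (median 2.42) in controls. MNF-treated tumors 1, 3 and 5 stood above the vehicle range, tumor 5 by less than the printed digits show, and the groups overlapped. The log2 change was 0.18 (SE 0.11, limma adjusted p = 0.71).

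Ndufs5, an accessory subunit held together by disulfide bonds, had levels of 3.22 to 3.70 (median 3.41) in treated tumors and 3.51 to 3.81 (median 3.70) in controls, and 4 MNF-treated tumors lay below all vehicle-treated ones. It was the single complex I member at an unadjusted p under 0.05 (log2 change -0.21, SE 0.09, limma adjusted p = 0.61). The accessory subunit Ndufa8 had levels of 0.28 to 0.90 (median 0.74) in treated tumors and 0.28 to 0.69 (median 0.50) in controls, a log2 change of 0.20 (SE 0.12, limma adjusted p = 0.72). Across the 28 members of complex I, 10 lay above 0 and 18 below, from -0.21 to 0.27. The gene Ndufa10l1 is named as a like copy of Ndufa10, which encodes an accessory subunit, so signals of the pair (log2 change -0.15 for Ndufa10 and -0.090 for Ndufa10l1) are uncertain as to their source.

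**Figure D2:**
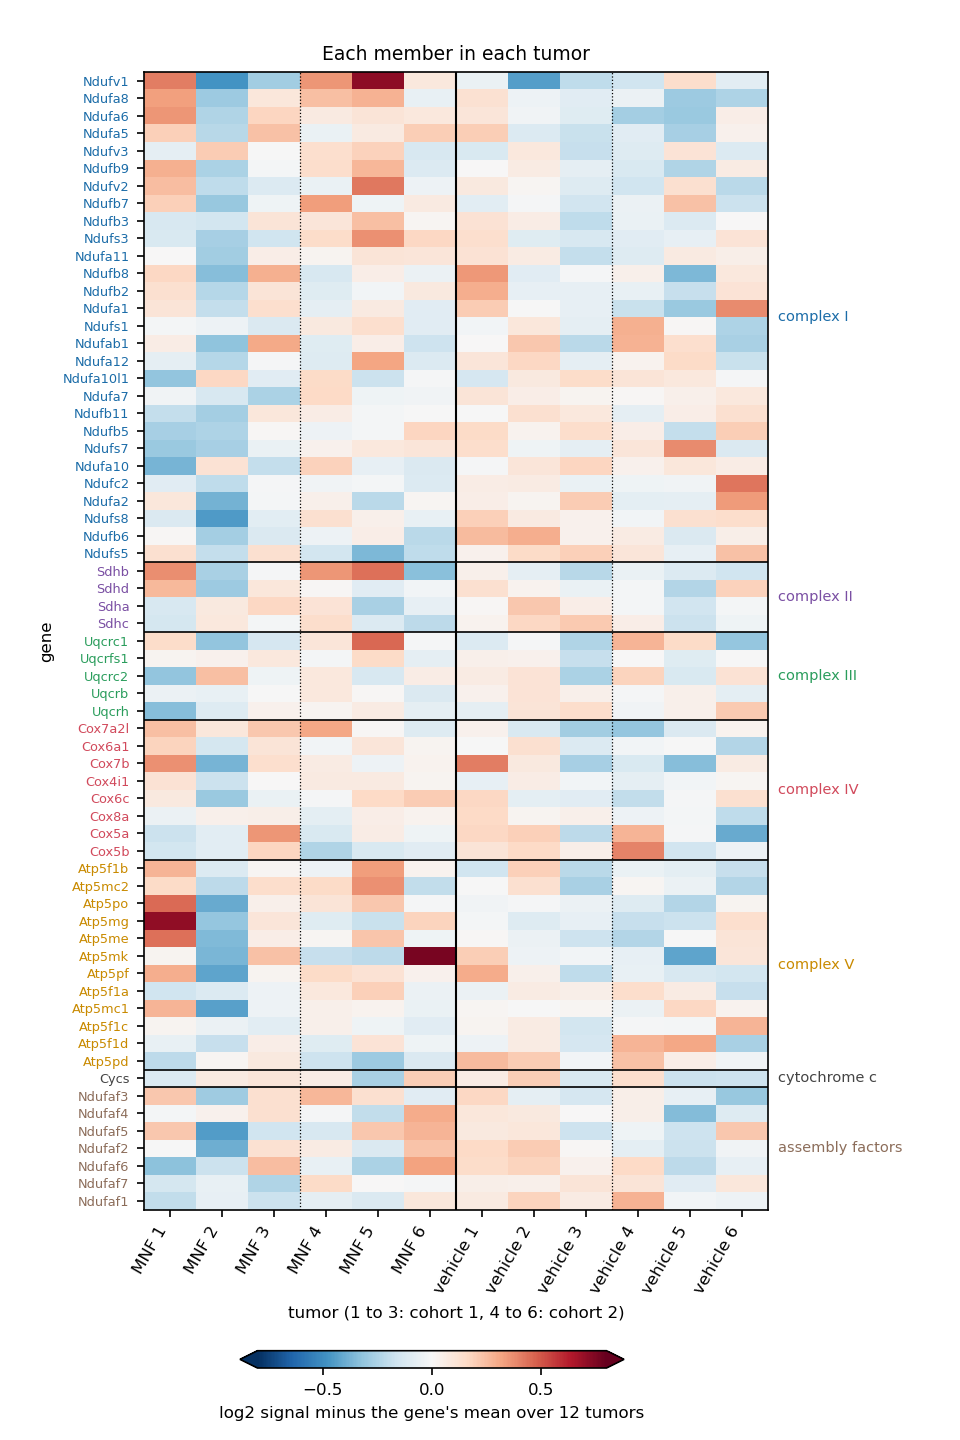
Log2 signal of each of the 65 members (rows, grouped by complex and ordered by their change with MNF) in each of the 12 tumors (columns, MNF left and vehicle right), with each gene's mean over the 12 tumors taken off (color scale, log2 units). MNF-treated tumor 2 has 53 of its 65 cells below 0, and the other columns have 17 to 44.

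Complex II, succinate dehydrogenase, also belongs to the citric acid cycle. Sdhb, its iron-sulfur subunit, varied most, at 1.86 to 2.64 (median 2.37) in treated tumors and 1.98 to 2.24 (median 2.11) in controls. MNF-treated tumors 1, 4 and 5 were above the vehicle range and tumors 2 and 6 below it. The log2 change was 0.19 (SE 0.14, limma adjusted p = 0.77), against -0.032 for the flavoprotein subunit Sdha and -0.083 for the membrane anchor Sdhc (adjusted p 0.95 and 0.84).

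Complex III moves electrons from coenzyme Q to cytochrome c. Its hinge subunit Uqcrh had levels of 3.73 to 4.13 (median 4.04) in treated tumors and 3.99 to 4.27 (median 4.14) in controls, overlapping groups with a log2 change of -0.13 (SE 0.09, limma adjusted p = 0.75). Uqcrc1, a core protein, had 2.27 to 3.05 (median 2.63) in treated tumors and 2.28 to 2.86 (median 2.53) in controls, and the log2 change was 0.082 (SE 0.12, limma adjusted p = 0.90). The Rieske iron-sulfur protein Uqcrfs1 and the small subunit Uqcrb had log2 changes of 0.068 and -0.045 (adjusted p 0.86 and 0.90). Cycs, cytochrome c itself and also a trigger of apoptosis once released, had levels of 2.67 to 3.13 (median 3.00) in treated tumors and 2.76 to 3.12 (median 2.90) in controls, with a log2 change of 0.022 (SE 0.10, limma adjusted p = 0.97).

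In complex IV the smallest p of all 65 members belonged to Cox7a2l, a factor that helps to join complexes III and IV into supercomplexes. Its levels were 2.23 to 2.64 (median 2.49) in treated tumors and 2.02 to 2.36 (median 2.21) in controls. MNF-treated tumors 1 to 4 were above every vehicle-treated tumor, and tumors 5 and 6 lay within the vehicle range. The log2 change was 0.26 (SE 0.10, limma adjusted p = 0.60).

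Cox5b, a subunit that binds zinc, had levels of 2.31 to 2.72 (median 2.44) in treated tumors and 2.39 to 2.94 (median 2.62) in controls, with a log2 change of -0.17 (SE 0.10, limma adjusted p = 0.71). Cox4i1 and Cox8a are the common forms of subunits that also exist in tissue forms. Cox4i1 had levels of 3.42 to 3.71 (median 3.64) in treated tumors and 3.52 to 3.65 (median 3.57) in controls, and Cox8a had 3.57 to 3.70 (median 3.68) in treated tumors and 3.44 to 3.81 (median 3.65) in controls. The log2 changes were 0.036 for Cox4i1, 0.079 for Cox6a1, 0.014 for Cox8a, -0.00015 for Cox5a and 0.027 for Cox6c, with limma adjusted p values of 0.93, 0.85, 0.97, 1.00 and 0.96, and each of these 5 turned in sign under at least 1 other setting. Cox6c was the member closest to the detection limit, with its highest detection p at 0.0133, and just outside the filter were Ndufs6-ps1 (10 arrays), Cox8b (6) and Ndufb4 (4).

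In complex V, Atp5pd, subunit d of the peripheral stalk, had levels of 0.93 to 1.30 (median 1.09) in treated tumors and 1.20 to 1.48 (median 1.35) in controls. The groups overlapped between 1.20 and 1.30. The log2 change was -0.23 (SE 0.09, limma adjusted p = 0.60). Atp5f1b, the catalytic beta subunit, had levels of 4.37 to 4.82 (median 4.51) in treated tumors and 4.27 to 4.67 (median 4.36) in controls, with a log2 change of 0.17 (SE 0.10, limma adjusted p = 0.73). Atp5mc2, which encodes a copy of the rotating c ring subunit, had 0.14 (SE 0.11, adjusted p 0.80), and the gamma subunit Atp5f1c had -0.064 (SE 0.081, adjusted p 0.88).

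Among the complex I assembly factors, Ndufaf1, a chaperone of the membrane arm, had levels of -1.39 to -1.11 (median -1.29) in treated tumors and -1.24 to -0.92 (median -1.13) in controls. The groups overlapped, and the log2 change was -0.18 (SE 0.08, limma adjusted p = 0.64). The methyltransferase Ndufaf7 had -0.10 (SE 0.08), and the early acting factors Ndufaf3 and Ndufaf4 had 0.12 (SE 0.11) and 0.076 (SE 0.10), with adjusted p values of 0.79, 0.81 and 0.88.

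The cohorts were also read apart, and 25 of 65 members (38.5%) had a change below 0 in cohort 1 and above 0 in cohort 2, against 25.4% of all features. In cohort 1 (3 tumors per group) 19 of 65 members had a change above 0, with a median of -0.049, where 50.1% of all features were above 0. The unadjusted p was under 0.05 for 3 of 65 members in cohort 1 against 7.51% of all features, and 3 of 65 in cohort 2 against 10.1%. In cohort 2 there were 43 of 65 above 0, with a median of 0.042, where 48% of all features were. These signs depended on the setting. Under Z-normalization over all probes, which is how the authors scaled their own values, the members' median in cohort 1 was 0.019. There 36 of 65 members were above 0 against 33.7% of all features, whose median was -0.082. With no filter the members' median in cohort 1 was 0.015, with 39 of 72 above 0 against 55.8% of all features. Without MNF-treated tumor 2 it was 0.025, with 34 of 65 above 0 against 50.5%. In cohort 2 the members' median was -0.010 under median centring, with 28 of 65 above 0 against 43.6%. The change in cohort 2 minus that in cohort 1 was above 0 in 52 of 65 members against 47% of all features, with a median of 0.13 against -0.024. No member passed the test of that difference (0 of 65, limma interaction, adjusted p under 0.05, 0% of all features), and 1 of 65 did at an unadjusted p under 0.05 against 9.33% of all features. Without MNF-treated tumor 2 the median difference was 0.060 and 40 of 65 were above 0, against 47.0% of all features. With Z-normalization over all probes the members' median difference was 0.047 and that of all features 0.047. There 39 of 65 members were above 0 against 56.6% of all features.

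**Figure D3:**
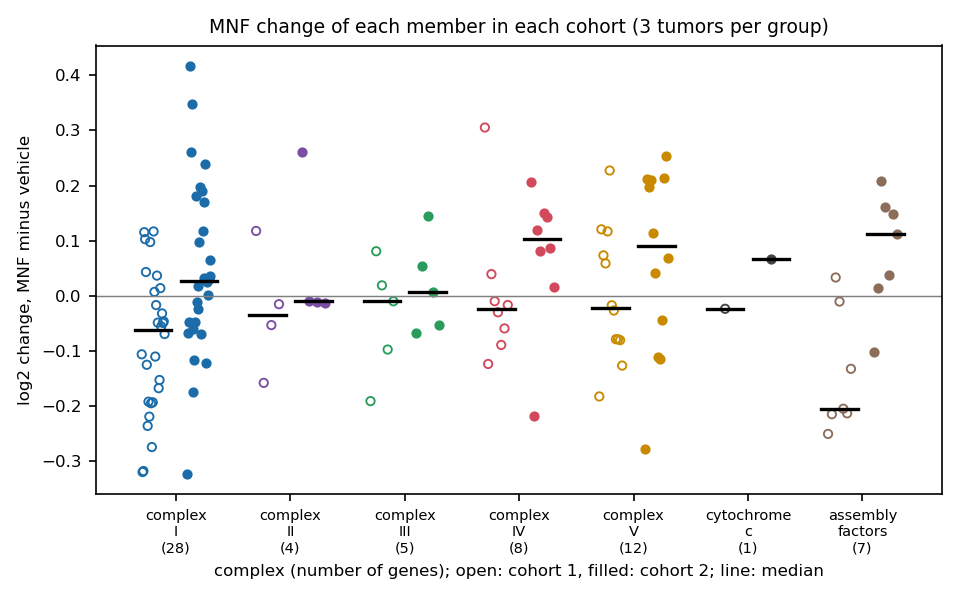
Log2 change, MNF minus vehicle (y axis), of each member by complex (x axis, number of genes in brackets) in cohort 1 (open points) and cohort 2 (filled points), with 3 tumors per group in each, where lines are medians over genes. The median of the 7 assembly factors was -0.20 in cohort 1 and 0.11 in cohort 2, and that of complex I was -0.062 and 0.028.

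The difference between cohorts was above 0 in 24 of 28 members of complex I (median 0.16), 4 of 4 of complex II (0.092), 3 of 5 of complex III (0.10), 6 of 8 of complex IV (0.086), 7 of 12 of complex V (0.063) and 7 of 7 assembly factors (0.23). Ndufs3, a core subunit of complex I near the coenzyme Q site, gave the smallest p. Its levels in cohort 1 were 1.36, 1.22 and 1.32 in MNF-treated tumors and 1.61, 1.38 and 1.35 in vehicle-treated tumors. In cohort 2 they were 1.62, 1.84 and 1.64 in treated tumors and 1.39, 1.41 and 1.59 with vehicle, so that all 3 treated tumors of cohort 2 were above the controls of their cohort. The difference of its changes was 0.39 (SE 0.17, limma adjusted p = 0.53).

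Ndufs8 and Ndufb6 had log2 changes of -0.32 and -0.32 in cohort 1 and -0.048 and -0.068 in cohort 2. Ndufv1 and Ndufa8 had 0.12 and 0.043 in cohort 1 and 0.42 and 0.35 in cohort 2. The differences of these 4 genes, 0.25 to 0.30, had adjusted p values of 0.60, 0.62, 0.74 and 0.64 (limma, in the order Ndufs8, Ndufb6, Ndufv1 and Ndufa8). In cohort 1 the 3 treated and 3 control tumors did not overlap in 7 members on the lower side (7.83% of all features) and 1 on the higher side (7.93%). In cohort 2 this held for 6 members on the higher side (6.38% of all features) and 2 on the lower side (7.1%). The members without overlap in cohort 1 were Ndufaf1, Ndufaf7, Ndufa7, Ndufb5, Ndufb6, Ndufs8 and Uqcrb on the lower side and Cox7a2l on the higher. In cohort 2 they were Cox4i1, Ndufa6, Ndufs3, Atp5pf, Ndufb3 and Atp5f1b on the higher side and Atp5pd and Ndufs5 on the lower.

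A single tumor of cohort 1 stood apart. MNF-treated tumor 2 had 53 of 65 members below their mean over the 12 tumors, with a median deviation of -0.21, while 49.9% of all features were below theirs. The other 11 tumors had median deviations of -0.070 to 0.063. In that tumor the median deviation was -0.24 for complex I, -0.088 for complex II, -0.057 for complex III, -0.11 for complex IV, -0.26 for complex V and -0.17 for the assembly factors, whereas Cycs was 0.075 above its mean. The tumor had 53 or 54 of the 65 members below their mean also with neqc, with quantile normalization, with median centring and with Z-normalization over all probes. Its muscle gene mean, -1.75, was the lowest of the MNF group, and the part of muscle tissue in the deviation was not tested. Vehicle-treated tumor 4 had a muscle gene mean of -1.92 and a median deviation of the members of -0.019.

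**Figure D4:**
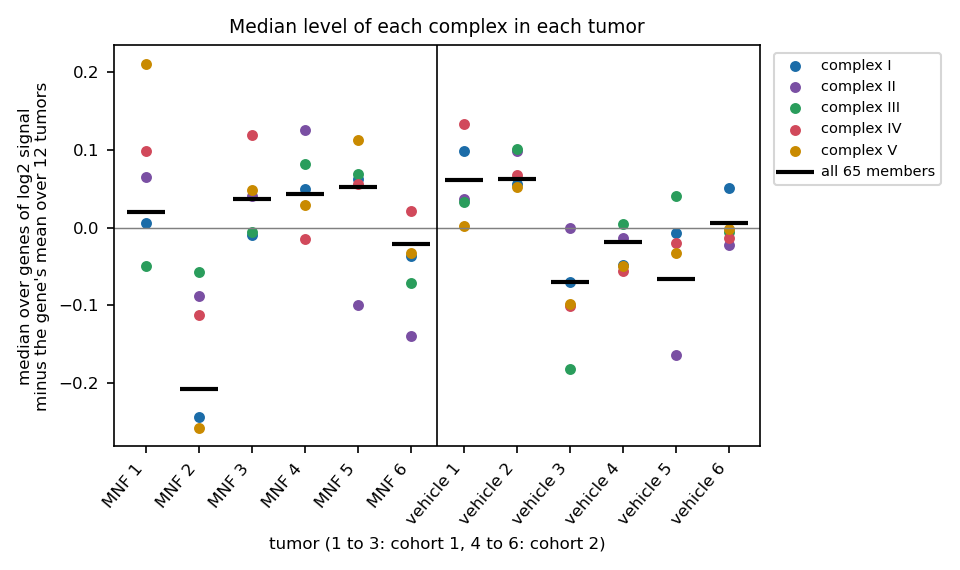
Median, over the genes of each complex (colored points) and over all 65 members (black bars), of the log2 signal minus each gene's mean over the 12 tumors (y axis, log2 units), for each tumor (x axis). MNF-treated tumor 2 lies at -0.21 over all members, below the range of -0.070 to 0.063 of the other 11 tumors.

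Without MNF-treated tumor 2 the median change of the members over both cohorts was 0.047, with 39 of 65 above 0 against 49.4% of all features. At an unadjusted p under 0.05 were 6 of 65 members against 10.2% of all features, and none (0) passed the adjusted threshold.

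Between the cohorts themselves, whatever the treatment, 0 of 65 members passed the test (0% of all features) and 2 of 65 did at an unadjusted p under 0.05 against 7.65% of all features. Both encode subunits of complex I. Ndufv1 was 0.35 higher in cohort 2 (SE 0.16, limma adjusted p = 0.63), by 0.20 with vehicle and 0.50 with MNF. Ndufs3 was 0.21 higher (SE 0.10, limma adjusted p = 0.65). Its levels given above overlapped between the cohorts in vehicle-treated tumors and did not overlap in MNF-treated tumors. The median difference, cohort 2 minus cohort 1, was 0.0090 over the members (34 of 65 above 0, against 50% of all features). It was 0.044 for complex I, -0.082 for complex II and 0.061 for complex III. For complex IV it was -0.070, for complex V 0.0088 and for the assembly factors -0.0061. In vehicle-treated tumors alone the members' median was -0.036, with 19 of 65 above 0 against 51.8% of all features. In MNF-treated tumors alone it was 0.074, with 45 of 65 above 0 against 49.1%. For complex I the median was -0.031 with vehicle and 0.10 with MNF.

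Most members were bright probes. Their median level ranked at percentile 91.2 of all features, while the assembly factors had a median percentile of 31.8. The SD between tumors of the same group and cohort had a median of 0.17 over the members and 0.19 over all features. By complex the median SD was 0.16 for complex I, 0.16 for complex II, 0.13 for complex III, 0.16 for complex IV and 0.20 for complex V. The steadiest members were Uqcrb (0.064), Cox8a (0.077), Ndufa7 (0.084) and Cox4i1 (0.084). The most variable were Atp5mk, a small subunit found in dimers of the ATP synthase (0.35), Ndufv1 (0.31) and Atp5mg, a membrane subunit (0.29). Atp5mk rested on a single high value of 0.95 in MNF-treated tumor 6, where the other 11 tumors were between -0.23 and 0.42, and Atp5mg on 3.74 in MNF-treated tumor 1, where the others were between 2.72 and 3.21.

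Of the muscle forms of complex IV, Cox8b was detected in some tumors and Cox6a2 in none. Cox8b, the subunit form of heart and skeletal muscle in rodents, was detected on 6 of 12 arrays and was therefore outside the test. Its signals as deposited were 174.6, 141.3 and 145.1 in the MNF-treated tumors of cohort 1, and 528.3, 1076.5 and 264.2 in those of cohort 2. In vehicle-treated tumors they were 188.2, 147.6 and 150.5 in cohort 1 and 136.9, 239.1 and 229.2 in cohort 2. The detected arrays were MNF-treated tumors 1, 4, 5 and 6 and vehicle-treated tumors 5 and 6, and 5 of these 6 belong to cohort 2.

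The same 6 tumors had the highest means of Acta1, Myl1 and Tnnc2, at 2.23, 4.57, 5.51 and 3.35 in treated tumors and 3.95 and 3.36 with vehicle, where the other 6 were between -1.92 and 0.64. The summed signal of the 12 muscle genes with a named probe was 1890 to 142560 in treated tumors and 1913 to 57534 with vehicle, and 3 of the 12 were detected on every array while Actn3, Myh4 and Mb were detected on none. The part of muscle tissue in the signal of Cox8b was not tested. Host tissue is mouse and the probes are rat, and how far they bind mouse transcripts was not tested.

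**Figure D5:**
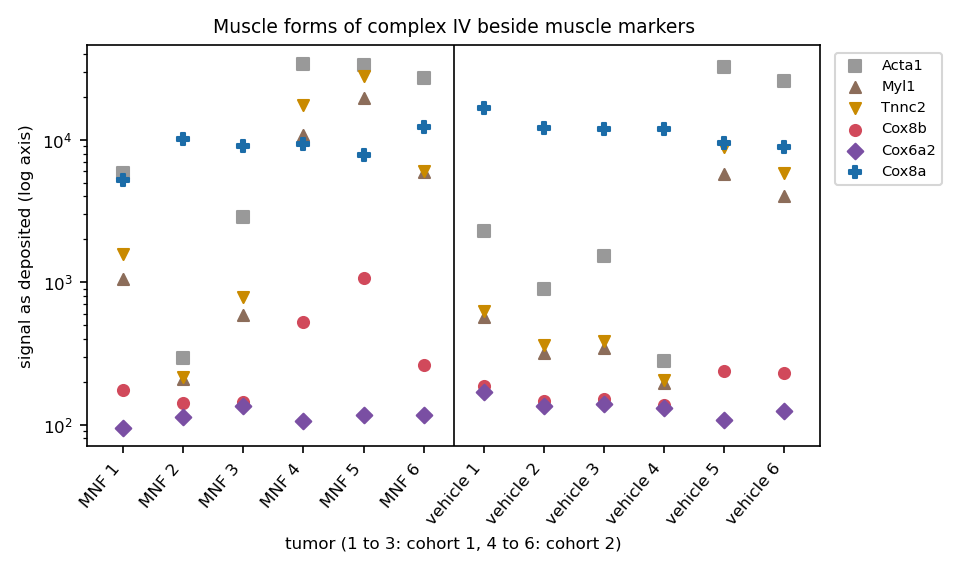
Signal as deposited (y axis, log scale) in each of the 12 tumors (x axis) for the muscle genes Acta1, Myl1 and Tnnc2, the muscle forms Cox8b and Cox6a2 and the common form Cox8a. Cox8b is highest in MNF-treated tumors 4 and 5, where the muscle genes are also high, while Cox6a2 stays between 94.4 and 170.2.

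Cox6a2, the muscle form of another subunit, was detected on 0 of 12 arrays, with signals of 94.4 to 136.2 in treated tumors and 108.1 to 170.2 with vehicle. Cox8c, a testis form, was also detected on none (0), with signals of 106.6 to 162.7. The common forms Cox6a1 and Cox8a were detected on all 12, with medians of 19323 and 9172 in the MNF group and 24427 and 11869 in the vehicle group. These medians of deposited signals were lower with MNF, as was the median of the array means (715 against 862), whereas after scaling on each array the group medians were 4.79 and 4.72 for Cox6a1 and 3.68 and 3.65 for Cox8a. The remaining members outside the filter were Ndufs4 (0 arrays), an accessory subunit of complex I, and Atp5mc3 (1 array), another c ring gene.

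Genes that work with the chain were read from lists of assembly factors and related mitochondrial pathways, and none of their members passed the adjusted threshold (0). The counts at an unadjusted p under 0.05 below stand against 7.99% of all features, 3.22% higher and 4.78% lower. Among 13 measured complex IV assembly factors the median log2 change was -0.049, and 1 was lower at an unadjusted p under 0.05, Surf1 (-0.23, SE 0.10). In a list of 4 genes of ATP synthase assembly and inhibition 2 were measured, and both were lower at that threshold, Atpaf2, a chaperone of the F1 part (-0.25, SE 0.09), and Tmem70, which aids the membrane part (-0.21, SE 0.08). Of the 5 measured factors of complex I outside the Ndufaf names, 0 reached it (median -0.086), nor did any of the 3 of complex II (median -0.054) or the 1 of complex III, Bcs1l.

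Coq3, a methyltransferase of coenzyme Q synthesis, had -0.33 (SE 0.09), the single one of 7 genes of that pathway at an unadjusted p under 0.05. Of 13 genes of mitochondrial biogenesis and mitochondrial DNA, 1 was higher and 2 were lower at that threshold (median 0.043), with Tfam, which packs and transcribes mitochondrial DNA, at -0.29 (SE 0.10) and the helicase Twnk at 0.18 (SE 0.07). Of 20 genes of protein import 2 were lower (median -0.066), Timm22 and Dnajc19 (-0.22 and -0.21). Of 6 carriers and channels 1 was higher, Vdac1, the main channel of the outer membrane (0.29, SE 0.12). The 19 genes of the citric acid cycle and pyruvate dehydrogenase had a median of 0.0075, with 10 above and 9 below 0 and 0 at that threshold. The adjusted p of each of these named genes lay between 0.50 and 0.61 (limma, over all features).

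Lists of other cell types and conditions were read in the same way. Of 7 measured hypoxia targets 0 had an unadjusted p under 0.05 (median -0.026). Of 6 glioma and glial markers 1 did, Olig1, a transcription factor of the oligodendrocyte lineage, at -0.75 (SE 0.19, limma adjusted p = 0.50). The globin gene Hbb, carried by red blood cells, was at 1.29 (SE 0.56, limma adjusted p = 0.61), and the muscle genes Myl1 and Tnnc2 were at 1.86 and 1.97 (SE 0.79 and 0.88, adjusted p 0.61 and 0.61). Without vehicle-treated tumor 4 they were at 1.06 and 1.10, and the median of the 3 measured muscle genes was 0.93 in cohort 1 and 2.79 in cohort 2. The 2 macrophage genes, Cd14 and Cd68, were at -0.13 and 0.15, and the 2 collagen genes with the smallest p, Col3a1 and Col1a1, at 0.39 and -0.21 (limma adjusted p 0.84, 0.86, 0.82 and 0.87). The part of these cell types in the values of the respiratory genes was not tested, apart from a single fit. With the muscle gene mean as a covariate, the members' median was -0.032. There 2 of 65 had an unadjusted p under 0.05 (limma), against 5.25% of all features.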

How the data were processed

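RNA of 12 tumors was read on Illumina RatRef-12 arrays. The authors deposited a signal intensity per probe with its detection p-value, exported from GenomeStudio (1.6.0 per the submitters' notes) and not normalized, for 22517 probes, and a processed table of Z scores, used here as an alternative. The platform annotation named 13259 probes, and 9258 are unnamed here. No per-sample column was left unused (0).

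Kept were the 7677 probes whose detection p was below 0.02 in all tumors. As in the study, values were Z-normalized, but over the kept probes only, where the authors' scores are scaled over all probes (an alternative here). Log2 signals were centred on the array mean, scaled to unit SD and brought back to log2 by the average SD over arrays. The brightest probe stood for a gene, which gave 7620 features. These were tested with limma 3.58.1 (R 4.3.3, lmFit and eBayes, cohort as covariate, Benjamini-Hochberg), and cohort effects came from a model of 4 groups. The fit of MNF against vehicle was run on simulated scaled values with independent noise. Filter, scaling, probe choice and the model of 4 groups were not tested in this way.

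The members and lists were chosen with earlier results of these data known. The text names Ndufv1, Ndufa6, Ndufb6 and Ndufs8, up to 2 members per complex and direction with the smallest p, members at an unadjusted p under 0.05, tissue forms, members beside the detection limit, and up to 2 genes of each other list. Genes named for their spread or cohort values were picked after those were seen. The number of arrays limits the precision. The alternatives were 13 settings of filter, scaling, model and weights, and leaving out each tumor. Motif shares carry no test.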

Additional observations from a re-analysis of the deposited data

Results flagged for a closer look

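Over the named members and the median of all members, 62 groups of 6 tumors were examined for a tumor that stood apart from the other 5, and 2 were found, where chance gives about 1 in 20. The median deviation of the 65 members was -0.21 in MNF-treated tumor 2 and -0.02 to 0.05 in the other 5 MNF-treated tumors. Ndufaf7, the methyltransferase among the assembly factors, was at -1.27 in vehicle-treated tumor 5 and at -1.14 to -1.07 in the other 5. Cox8b, which was outside the test, reached a signal of 1076.5 in MNF-treated tumor 5, where vehicle-treated tumors were at 136.9 to 239.1. No difference between cohorts passed the adjusted threshold for any named member (0).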

How the results depend on the processing

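No member was called (0) under any of the settings for MNF against vehicle, for the difference between cohorts or for cohort 2 against cohort 1. No feature was called for MNF against vehicle either (0 with each setting). For cohort 2 against cohort 1, 31 features were called with array quality weights and 0 to 46 when 1 tumor was left out (46 without vehicle-treated tumor 4). For the difference between cohorts 0 to 50 were (50 without vehicle-treated tumor 6). The cause was not tested. Features at an unadjusted p under 0.05 for MNF numbered 1640 with no filter, where 22236 features were tested, 400 with the muscle gene mean as a covariate, and 370 to 781 when 1 tumor was left out (370 without MNF-treated tumor 5, 781 without MNF-treated tumor 2). Members at that threshold were 6 of 65 with array quality weights, against 10.4% of all features. They were 6 of 65 with median centring, against 8.19%, and 6 of 72 with no filter, against 7.38%. When 1 tumor was left out they numbered 1 to 6. There was 1 of 65 without vehicle-treated tumor 3, against 6.92% of all features, and 6 of 65 without MNF-treated tumor 2, against 10.2%. Of the features at an unadjusted p under 0.05, 59.8% were lower with MNF, and 79.0% with Z-normalization over all probes or the authors' processed values.

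The median change of the members was -0.053 to 0.026 over the 13 settings and -0.031 to 0.047 when 1 tumor was left out. The median of complex IV was -0.055 with quantile normalization and -0.060 with neqc, that of complex III was 0.062 with the muscle covariate, and that of complex V was -0.020 to 0.083 over the settings. The level of Cycs in cohort 2 minus cohort 1 was 0.12 with the muscle covariate. For that cohort difference the median of complex I was -0.050 to 0.049 over the settings. The members' median difference of MNF effects between cohorts was 0.043 with no filter, where scaling is over all probes and 72 members enter, and 0.047 with that scaling and the 65 members. The setting that counts Ndufa4 with complex I could not be run, because no named probe was found here.

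Signs turned in members with log2 changes near 0. Values with Z-normalization over all probes were Cox5a 0.037, Cox6c -0.070 and Uqcrb 0.015, with no filter Cox5a 0.037, Cox6c -0.070 and Uqcrb 0.015, and with the authors' processed values Cox5a 0.037, Cox6c -0.070 and Uqcrb 0.014. With array weights they were Cox5a 0.10, Cox6c -0.0051 and Cycs -0.0053, and with the filter by group Cox5a 0.0029. With median centring they were Cox4i1 -0.053, Cox6a1 -0.043, Cox8a -0.077, Cycs -0.047 and Uqcrfs1 -0.010. With the muscle covariate they were Cox4i1 -0.016, Cox5a 0.085, Cox6c -0.081, Ndufs3 -0.035 and Sdha 0.015. With neqc they were Cox4i1 -0.048, Cox5a 0.00052, Cox6a1 -0.077, Cox6c -0.15, Cox8a -0.071 and Sdha 0.013, and with quantile normalization Cox4i1 -0.048, Cox5a 0.00088, Cox6a1 -0.077, Cox6c -0.062, Cox8a -0.071 and Sdha 0.012. When 1 tumor was left out the ranges were -0.081 to 0.069 for Cox5a, -0.024 to 0.086 for Cox6c, -0.020 to 0.041 for Cox8a, -0.027 to 0.074 for Cycs, -0.0090 to 0.10 for Ndufs3, -0.075 to 0.0075 for Sdha and -0.0021 to 0.14 for Uqcrc1. The remaining members chosen by the naming rule kept their direction. The cause was not tested.

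The labels number the tumors 1 to 6 in both groups. Deviations of tumors with the same number correlated at -0.19 to 0.38, over 0.1 in 2 of 6 pairs. So few pairs cannot show whether tumors of the same number share anything else. With the replicate number as a block the members' median was -0.0089 and 0 members were called. An unadjusted p under 0.05 was found for 3 of 65 members and for 540 features (7.09%). Only 1 of the 6 MNF-treated tumors correlated best with the vehicle-treated tumor of its own number. Signals near background limit Cox6c and the 7 members that failed the filter.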

Other observations

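Proteins of the mitochondrial ribosome, which translate the subunits encoded by mitochondrial DNA, and of the cytosolic ribosome were read beside the members. The 56 measured genes of the mitochondrial ribosome had a median log2 change of -0.086 with MNF, with 17 above and 39 below 0 (50.2% of all features were above 0), and medians of -0.088 in cohort 1 and -0.085 in cohort 2. Over the other settings and left-out tumors the median lay between -0.10 and -0.041. The 61 measured genes of the cytosolic ribosome had a median of 0.27 in cohort 1, with 56 above 0 (50.1% of all features), and -0.072 in cohort 2, with 22 above 0 (48% of all features). Over the other settings and left-out tumors the cohort 1 median was 0.041 to 0.44 and the cohort 2 median was -0.13 to -0.018. None of the genes of either family passed the test with all 12 tumors under the scaling of the report (0, limma, adjusted p under 0.05), and 1 mitochondrial ribosome gene did in cohort 2 without vehicle-treated tumor 6. Over both cohorts 6 of 56 mitochondrial ribosome genes were lower at an unadjusted p under 0.05, where 4.78% of all features were. Of the cytosolic ones 5 of 61 were higher, where 3.22% of all features were. The cytosolic median over both cohorts was 0.10, with 42 of 61 above 0 (50.2% of all features). It was -0.019 to 0.18 over the other settings and left-out tumors. With quantile normalization, neqc and median centring it was below 0. Both families were chosen with results of these data known.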
